A study of Mus musculus with 3 samples.

Results

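The genes described here are 9 keratins and the transcription factor gene Trp63, 10 of the 32285 genes counted in nuclei of the mouse lacrimal gland, the gland that makes the watery part of tears. They were taken by symbol alone: the basal keratins Krt5, Krt14, Krt15 and Krt17, the luminal keratins Krt7, Krt8, Krt18, Krt19 and Krt23, and Trp63. Each symbol named 1 row. Their levels are given in 14105 acinar-like, 4253 duct-like and 1029 myoepithelial-like nuclei out of 26849 kept. The nuclei came from fresh glands and were sequenced in droplet libraries, 3 in all and 1 per group. The control library came from normal control mice. The scopolamine library came from mice with dry eye brought on by scopolamine, which blocks muscarinic receptors, and dry stress. The tamsulosin library came from dry eye mice given tamsulosin, which blocks alpha-1 adrenergic receptors. The labels used here give no strain, age, sex, dose, duration or number of animals. A protocol shared by the 3 libraries mentions collection of nuclei with a red fluorescent protein, and whether these libraries were sorted could not be settled.

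Keratins are the intermediate filament proteins of epithelial cells, and a filament needs a type II keratin (Krt5, Krt7 and Krt8 here) paired with a type I keratin. Krt5 and Krt14 form the filaments of basal cells, which sit on the basement membrane, and Krt8 and Krt18 those of simple, luminal epithelium. Trp63 encodes p63, a p53-family factor of basal epithelial cells. Myoepithelial cells are contractile basal cells that wrap acini, and in exocrine glands they carry basal keratins and p63.

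Promoters are shown for Krt5 and Krt14, the basal pair, and for Krt7, Krt8 and Krt18, because the levels of these 5 genes set the epithelial classes apart in the results that follow. RefSeq's promoter table (GRCm38.p6) matched 6 of the 10 genes. Each line holds the 250 bases before the start that RefSeq annotates, 5′ to 3′ in the direction of transcription. The windows are chr15:101712906-101713155 (minus strand) for Krt5, chr11:100206031-100206280 (minus) for Krt14, chr15:101412153-101412402 (plus) for Krt7, chr15:102004343-102004592 (minus) for Krt8 and chr15:102027966-102028215 (plus) for Krt18. Capitals mark matches, on either strand, to GGGCGG (the GC box) or GCCNNNGGC (a core of AP-2 sites).
Krt5: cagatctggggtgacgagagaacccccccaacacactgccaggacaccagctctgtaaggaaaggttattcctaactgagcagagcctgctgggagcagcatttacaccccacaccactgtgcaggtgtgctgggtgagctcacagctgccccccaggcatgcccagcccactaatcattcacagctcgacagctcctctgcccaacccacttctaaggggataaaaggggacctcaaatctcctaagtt
Krt14: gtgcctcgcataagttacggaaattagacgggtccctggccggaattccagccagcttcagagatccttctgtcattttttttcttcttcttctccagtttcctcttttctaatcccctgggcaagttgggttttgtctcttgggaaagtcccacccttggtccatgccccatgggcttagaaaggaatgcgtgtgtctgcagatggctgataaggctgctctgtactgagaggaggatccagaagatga
Krt7: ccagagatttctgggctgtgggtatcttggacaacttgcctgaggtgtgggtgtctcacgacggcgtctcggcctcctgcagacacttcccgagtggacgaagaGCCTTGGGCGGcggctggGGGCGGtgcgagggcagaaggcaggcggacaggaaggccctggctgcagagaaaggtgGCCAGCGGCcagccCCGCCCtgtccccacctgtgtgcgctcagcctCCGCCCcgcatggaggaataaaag
Krt8: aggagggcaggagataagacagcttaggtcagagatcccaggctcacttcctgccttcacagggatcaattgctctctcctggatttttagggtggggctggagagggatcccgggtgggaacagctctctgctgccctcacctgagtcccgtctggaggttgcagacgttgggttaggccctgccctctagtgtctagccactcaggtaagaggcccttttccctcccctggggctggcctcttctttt
Krt18: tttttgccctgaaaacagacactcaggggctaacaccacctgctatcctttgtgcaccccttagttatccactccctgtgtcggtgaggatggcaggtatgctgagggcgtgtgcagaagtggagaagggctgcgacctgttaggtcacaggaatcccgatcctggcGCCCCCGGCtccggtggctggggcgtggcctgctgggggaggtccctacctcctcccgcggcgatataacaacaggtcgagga
The Krt7 window held 4 matches to GGGCGG and 2 to GCCNNNGGC, and the matches that begin at -141 and -146 overlap. The Krt18 window held 1 match to GCCNNNGGC, which begins at -83. None of the 5 windows held TATAAA on either strand. Over all 32851 promoters of this length, 32.7% held GGGCGG, 13.7% held GCCNNNGGC and 12.4% held TATAAA. The matches describe letters and not binding.

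In the GENCODE vM21 annotation (GRCm38), Krt14, Krt15, Krt17, Krt19 and Krt23 lie on chromosome 11, Krt5, Krt7, Krt8 and Krt18 on chromosome 15 and Trp63 on chromosome 16. Krt8 (101996698 to 102004482, minus strand) and Krt18 (102028180 to 102032027, plus strand) are 23.7 kb apart. The RefSeq windows above do not all lie outside these GENCODE genes. Those of Krt14 (100203162 to 100207548, minus strand) and Krt7 (101411043 to 101430313, plus strand) lie inside the gene. The Krt8 and Krt18 windows overlap the start of the gene. Trp63 (25683763 to 25892102, plus strand) spans 208.3 kb, of which 4.0% is exonic, and the keratin genes span 3.8 to 19.3 kb. Whether intronic reads were counted is not given in the sources used here, so levels are compared within a gene and not between genes. Krt7 and Krt8 overlap the opposite-strand genes Gm671 and Gm36026, from which their reads are separated only if strand was used. Krt14 and Krt17 have similar sequences, so the split of reads between them is uncertain.

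Nuclei were clustered and named without any keratin gene and without Trp63. The class names end in "-like" because they rest on other transcripts, and the criteria for the duct-like and acinar-like names were loose. The libraries kept 6780, 9205 and 10864 nuclei (control, scopolamine and tamsulosin, the order of all values here), with medians of 2303, 1736 and 3354 UMIs, and pairs of libraries shared 22 to 35 barcodes. Levels are CPM, counts per 1000000 UMIs, with UMIs summed over a class in a library. Ranges in parentheses are 95% intervals, exact Poisson for a level and exact conditional binomial for a ratio. They cover counting error only. Each group is a single library, so groups could not be tested against each other. In such sums, fewer nuclei with an RNA and less RNA per nucleus cannot be told apart. The 20 acinar markers, all detected, summed to 61979, 187742 and 227264 CPM in acinar-like nuclei and to 59119.7, 133773 and 203590 CPM in fibroblast-, endothelial-, macrophage- and T or NK-like nuclei. The latter are called non-epithelial here (732, 1346 and 1078 nuclei), and levels are read beside theirs because free RNA was present. The acinar marker sum was higher still in myoepithelial-like nuclei of every library (values below), so this sum does not set the acinar-like class apart. Of the 12 myoepithelial markers only Myocd was at 0 in myoepithelial-like nuclei, and of the 22 duct markers Slc26a4 was at 0 in duct-like nuclei of all 3 libraries.

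The genes fell into a set that was highest in myoepithelial-like nuclei, a set that was highest in duct-like nuclei, and a remainder. In all 3 libraries, 4 of the 10 genes were above both other epithelial classes in myoepithelial-like nuclei, with intervals that exclude equal levels: Krt5, Krt14, Krt17 and Trp63. By this criterion 3 were highest in duct-like nuclei (Krt7, Krt8 and Krt18) and 0 in acinar-like nuclei. Over all genes with at least 30 UMIs in these classes, 5% were highest in myoepithelial-like nuclei, 7.07% in duct-like nuclei and 4.16% in acinar-like nuclei. Krt15 did not reach 30 UMIs and could not be placed. After thinning each nucleus to 1000 UMIs, 1 gene, Trp63, was still highest in myoepithelial-like nuclei of all 3 libraries.

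**Figure D1:**
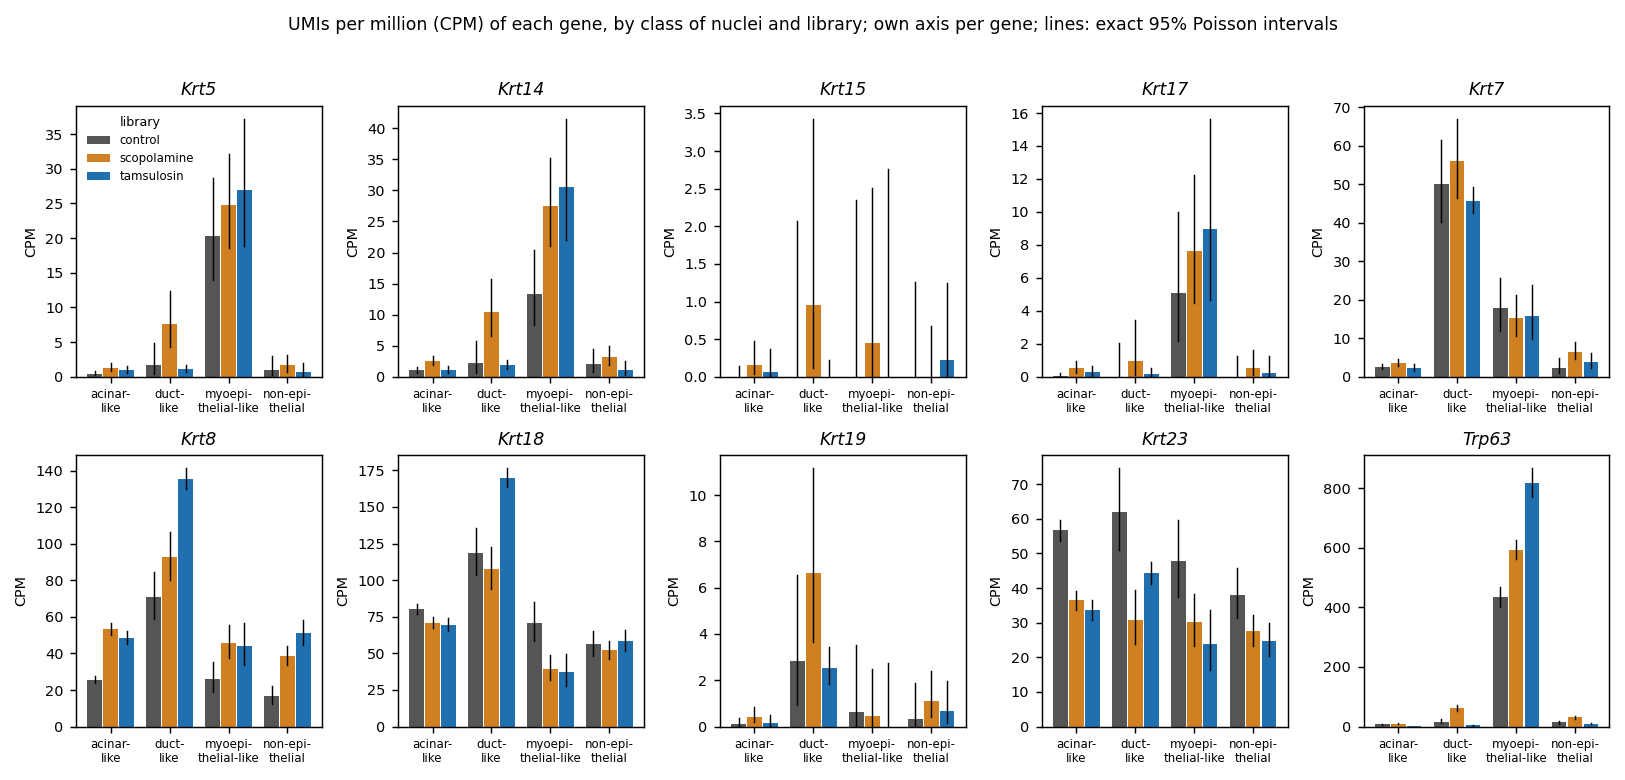
Bars show the level of each gene (CPM, a separate vertical scale per gene) in acinar-, duct- and myoepithelial-like and non-epithelial nuclei of the control, scopolamine and tamsulosin libraries, and lines are exact 95% Poisson intervals. Trp63, Krt5, Krt14 and Krt17 are highest in myoepithelial-like nuclei and Krt7, Krt8 and Krt18 in duct-like nuclei, whereas Krt23 ranges from 23.9 to 61.9 CPM over the 3 epithelial classes.

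Trp63 lay at 434 (402 to 468), 594 (563 to 627) and 817 (770 to 867) CPM in myoepithelial-like nuclei. It lay at 7.33, 9.52 and 2.33 CPM in acinar-like nuclei and at 13.9, 31.1 and 9.81 CPM in non-epithelial nuclei. The acinar-like level was below the pooled non-epithelial one in every library, so no acinar-like excess over it was detectable. That pooled level was uneven: in the scopolamine library it was 38.6 CPM in fibroblast-like and 30.6 CPM in macrophage-like nuclei. There it was 4.86 CPM in endothelial-like and 5.00 CPM in T or NK-like nuclei, on 2 UMIs each. Whether the acinar-like level is background was not settled. The ratio of myoepithelial-like to acinar-like nuclei was 59.3 (50.2 to 70.2), 62.5 (53.3 to 73.5) and 351 (251 to 506). After thinning to 1000 UMIs, 32.9, 48.0 and 48.3% of myoepithelial-like nuclei held a Trp63 UMI, against 1.503, 1.74 and 0.835% of non-epithelial nuclei. Without thinning these shares were 67.1, 76.8 and 75.7% against 3.55, 4.53 and 2.50%, at median depths of 3315, 2898 and 3002 UMIs against 2424.5, 2011 and 2668.5 UMIs. Thinning left out 2 myoepithelial-like and 23 non-epithelial nuclei, all from the scopolamine library.

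Krt5, the basal type II keratin, lay at 20.4 (13.9 to 28.7), 24.7 (18.6 to 32.2) and 26.9 (18.8 to 37.2) CPM in myoepithelial-like nuclei, from 32, 55 and 36 UMIs. The 3 intervals overlap. In acinar-like nuclei Krt5 lay at 0.448, 1.34 and 0.932 CPM, within counting error of the 1.02, 1.66 and 0.669 CPM in non-epithelial nuclei. Krt14, the type I partner of Krt5, lay at 13.4 (8.27 to 20.4), 27.4 (21.0 to 35.2) and 30.6 (21.98 to 41.6) CPM in myoepithelial-like nuclei. Its control interval ends below those of the other libraries, which overlap each other. In acinar-like nuclei Krt14 lay at 1.06, 2.53 and 1.07 CPM, again within counting error of non-epithelial nuclei (2.04, 3.14 and 1.11 CPM).

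Krt17, a type I keratin of basal and stressed epithelium, had 8, 17 and 12 UMIs in myoepithelial-like nuclei, or 5.09, 7.65 and 8.96 CPM. It had 0, 2 and 3 UMIs in duct-like nuclei, where the count of 0 allows up to 1.69 CPM. Krt15, a type I keratin of basal cells, had 8 UMIs in all kept nuclei, and no class difference was detectable at this depth.

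Most myoepithelial-like nuclei with a Trp63 UMI held no Krt5 UMI at 1000 UMIs per nucleus. In the control library there were 2 Krt5 UMIs in 91 nuclei with a Trp63 UMI and 6 in 186 without. The counts were 7 in 204 against 6 in 221 in the scopolamine library, and 2 in 157 against 5 in 168 in the tamsulosin library. At these counts no link between Trp63 and Krt5 within the class was detectable.

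Krt7, a type II keratin of duct epithelium, lay at 50.1 (40.2 to 61.6), 56.0 (46.4 to 67.1) and 45.8 (42.6 to 49.2) CPM in duct-like nuclei. The 3 intervals overlap. It lay at 2.57, 3.60 and 2.33 CPM in acinar-like nuclei, which makes the ratio of duct-like to acinar-like nuclei 19.5 (14.0 to 27.4), 15.6 (11.4 to 21.3) and 19.6 (14.0 to 28.4). Myoepithelial-like nuclei lay between them at 17.8, 15.3 and 15.7 CPM, above the 2.38, 6.47 and 3.79 CPM of non-epithelial nuclei in each library.

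Krt8, the simple-epithelial type II keratin, lay at 70.9 (59.1 to 84.4), 92.6 (80.1 to 107) and 136 (130 to 141) CPM in duct-like nuclei. In acinar-like nuclei it lay at 25.5 (23.6 to 27.6), 53.5 (50.2 to 56.9) and 48.6 (45.2 to 52.3) CPM, so the control level was the lowest in both classes. Non-epithelial nuclei held 16.7, 38.6 and 51.1 CPM of Krt8. The ratio of acinar-like to non-epithelial nuclei was 1.53 (1.15 to 2.09), 1.38 (1.19 to 1.61) and 0.952 (0.820 to 1.11), which means that no acinar excess was detectable in the tamsulosin library.

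Krt18, the type I partner of Krt8, lay at 119 (103 to 136), 108 (94.2 to 123) and 170 (164 to 176) CPM in duct-like nuclei. It lay at 80.2 (76.7 to 83.9), 71.0 (67.2 to 74.9) and 69.7 (65.5 to 74.0) CPM in acinar-like nuclei and at 70.6, 39.6 and 37.4 CPM in myoepithelial-like nuclei. Non-epithelial nuclei held 56.1, 52.1 and 58.6 CPM, above the myoepithelial-like level in the scopolamine and tamsulosin libraries. Krt19, a type I keratin of duct epithelium, was rare, with 5, 14 and 41 UMIs in duct-like nuclei (2.81, 6.65 and 2.54 CPM). Its ratio of duct-like to acinar-like nuclei was 23.0 (4.48 to 148), 15.5 (6.05 to 42.5) and 19.05 (4.95 to 163), on 3, 8 and 2 acinar-like UMIs.

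Krt23, a type I keratin, had no class in which it was highest in all 3 libraries. It lay at 56.7, 36.4 and 33.6 CPM in acinar-like nuclei, at 61.9, 30.9 and 44.2 CPM in duct-like nuclei and at 47.7, 30.1 and 23.9 CPM in myoepithelial-like nuclei. Non-epithelial nuclei held 38.1, 27.5 and 24.7 CPM. The acinar-like excess over them was small, at 1.49 (1.23 to 1.82), 1.32 (1.11 to 1.59) and 1.36 (1.10 to 1.68).

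Set against non-epithelial nuclei, 5 of the 8 genes with at least 30 UMIs were higher in myoepithelial-like nuclei of all 3 libraries (Krt5, Krt14, Krt17, Krt7 and Trp63), where 5.91% of all genes were. In duct-like nuclei 3 of 8 were higher (Krt7, Krt8 and Krt18), against 9.23% of all genes. In acinar-like nuclei 2 of 7 were higher (Krt18 and Krt23), against 6.06% of all genes, and Trp63 was lower.

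The duct-like class joined 3 clusters that the libraries filled unequally. There were 5, 67 and 3246 nuclei in cluster 2, then 366, 310 and 133 in cluster 11 and 21, 83 and 22 in cluster 19. Trp63 and not Krt7 divided them: Krt7 was present in all, and Trp63 was high in cluster 19 alone of the 3. Trp63 lay at 415 (263 to 623), 439 (365 to 524) and 215 (131 to 332.4) CPM in cluster 19 and at 4.11, 4.48 and 2.11 CPM in cluster 11. The ratio of cluster 19 to cluster 11 was 101 (42.0 to 279), 97.9 (46.1 to 248.8) and 102 (24.7 to 898). Krt7 lay at 72.2, 50.4 and 64.6 CPM in cluster 19 and at 49.9, 55.7 and 86.7 CPM in cluster 11, and the ratio's interval held 1 in every library. Krt5 had 3, 15 and 1 UMIs in cluster 19 (54.1, 54.0 and 10.8 CPM) and Krt14 had 1, 17 and 1. In the scopolamine library, which had the most cluster 19 nuclei, Krt5 was 84.3 times (12.97 to 3549) and Krt14 31.8 times (9.21 to 170) the cluster 11 level, while Krt8 was at 0.351 (0.157 to 0.686) and Krt18 at 0.549 (0.313 to 0.905) of it.

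Cluster 19 was also set beside myoepithelial-like nuclei, because both held Trp63. Its 12 myoepithelial markers summed to 379, 342 and 151 CPM, against 2630, 2663 and 2730 CPM in myoepithelial-like nuclei, and Cnn1, Oxtr, Actg2, Lmod1 and Myocd were at 0 in cluster 19 of every library. Krt7 was higher in cluster 19, at 4.05 (1.03 to 11.6), 3.29 (1.63 to 6.30) and 4.12 (1.36 to 10.5) times the myoepithelial-like level. In the scopolamine library Krt5 lay at 54.0 (30.2 to 89.0) CPM in cluster 19 and 24.7 (18.6 to 32.2) in myoepithelial-like nuclei. Krt14 lay at 61.2 (35.6 to 98.0) and 27.4 (21.0 to 35.2) CPM in the same order. In control Krt5 lay at 54.1 against 20.4 CPM and Krt14 at 18.0 against 13.4 CPM, on 3 and 1 cluster 19 UMIs. In tamsulosin both lay at 10.8 CPM in cluster 19, on 1 UMI each, against 26.9 and 30.6 CPM. The cluster combined Trp63 and Krt7 and was named duct-like on 10 of the 22 duct markers, and it is called by its number here.

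**Figure D2:**
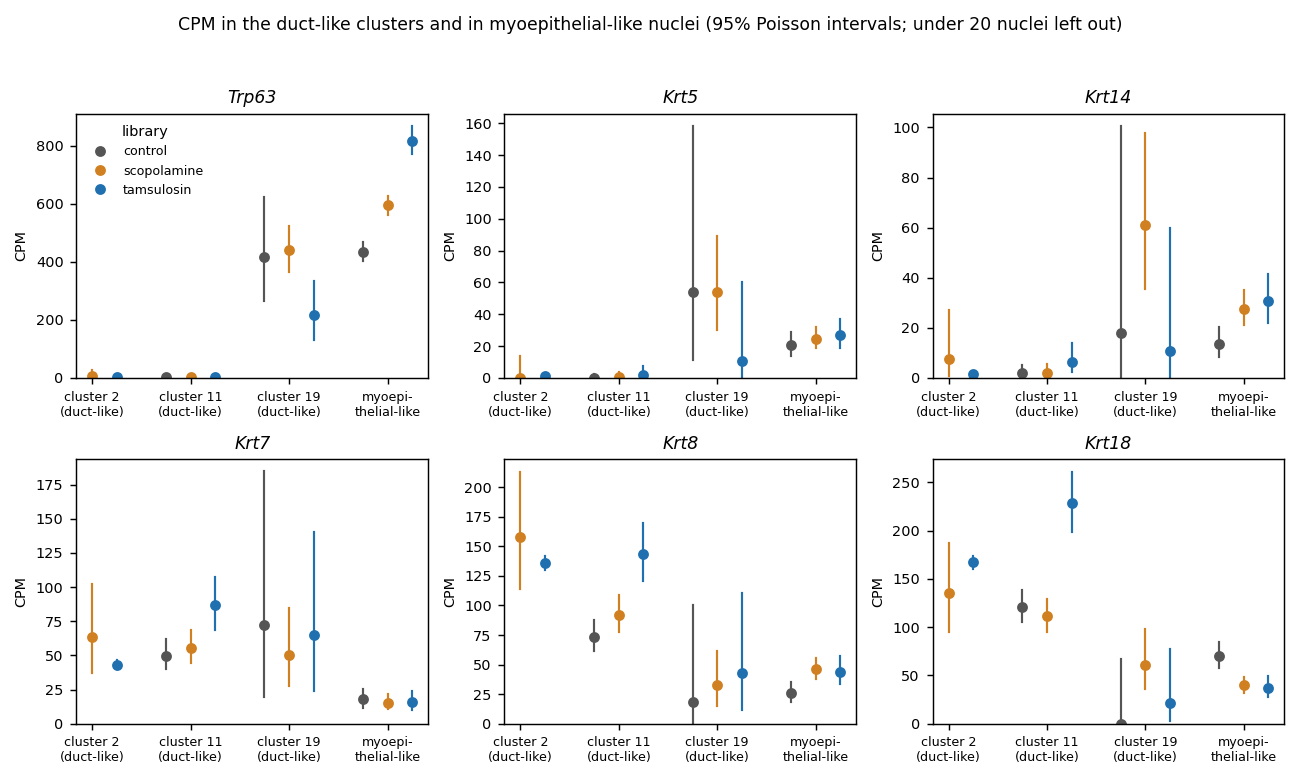
Levels (CPM) of the genes in the duct-like clusters 2, 11 and 19 and in myoepithelial-like nuclei, by library, with exact 95% Poisson intervals; clusters with under 20 nuclei in a library are left out. Trp63 stands between 215 and 439 CPM in cluster 19 and at 4.48 CPM or less in cluster 11, while Krt7 lies between 49.9 and 86.7 CPM in both.

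Libraries were compared within each class by the ratio of levels, counted where it was at least 1.5-fold and its interval excluded 1. Counts are given for genes with a mean of at least 20 CPM, beside the share of all such genes past the same limits. More genes were lower than higher in both dry eye libraries. The median log2 ratio over all genes, with 5 CPM added, was -0.28, -0.11 and -0.40 in acinar-like nuclei (scopolamine against control, tamsulosin against scopolamine and tamsulosin against control). It was -0.13, -0.24 and -0.37 in duct-like nuclei and -0.28, -0.39 and -0.67 in myoepithelial-like nuclei. The comparisons share libraries and are not independent.

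In myoepithelial-like nuclei of the scopolamine library, 2 of 6 genes were higher than in control (3.57% of all genes) and 2 were lower (21.4%). Krt14 was 2.05 times (1.23 to 3.55) and Krt8 1.76 times (1.21 to 2.59) the control level. Non-epithelial nuclei held 16.7, 38.6 and 51.1 CPM of Krt8, against 26.1, 45.9 and 44.1 CPM here, and with free RNA subtracted the Krt8 ratio became 0.769, with an interval that held 1. Krt18 was at 0.561 (0.419 to 0.748) and Krt23 at 0.632 (0.448 to 0.890) of control, and these calls were lost in 2 of 6 and 3 of 7 alternatives. Free RNA subtraction was among those that lost the Krt23 call. Trp63 was 1.37 times (1.246 to 1.502) the control level, under the limit of 1.5, and the interval of Krt5 held 1 (0.772 to 1.94). In the tamsulosin library against control, 3 of 6 were higher (5.44%) and 2 lower (57.7%). Trp63 was 1.88 times (1.71 to 2.07), Krt14 2.29 times (1.32 to 4.08) and Krt8 1.69 times (1.12 to 2.58) the control level. Relative to the median gene, the log2 difference of Trp63 was 1.58. Krt18 was at 0.529 (0.371 to 0.745) and Krt23 at 0.501 (0.320 to 0.767) of control, close to the median gene, with relative log2 differences of -0.16 and -0.19. In this comparison Krt18 no longer passed in 5 of 6 alternatives, up to 0.817, Krt14 in 3 of 7, down to 1.46, and Krt23 in 1 of 6, up to 0.774. Between tamsulosin and scopolamine, 0 of 6 were higher (4.44%) and 0 lower (33.7%), and Trp63 came nearest at 1.38 (1.27 to 1.49). The Trp63 ratio to control fell short of the limit at a finer cluster resolution and with nuclei of at least 1600 UMIs, where the lower value was 1.28. Acinar markers in these nuclei summed to 72903.6, 206666 and 314416 CPM, in the same library order as Trp63, and their part in the ratios was not tested.

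The acinar-like class joined 8 clusters, and the libraries mostly filled different ones. In control, scopolamine and tamsulosin there were 3816, 21 and 0 acinar-like nuclei in cluster 0. The numbers were 7, 3613 and 18 in cluster 1, and 1, 187 and 1784 in cluster 4. The ratios of this class therefore do not compare one matched population. In acinar-like nuclei of the scopolamine library, 1 of 3 genes was higher than in control (4.46% of all genes) and 1 was lower (20.7%). Krt8 was 2.09 times (1.89 to 2.32) and Krt23 0.643 times (0.586 to 0.706) the control level. In the tamsulosin library against control the same 2 genes passed, 1 higher (5.29%) and 1 lower (32.2%): Krt8 at 1.90 (1.71 to 2.12) and Krt23 at 0.592 (0.534 to 0.656). Krt23 no longer passed with totals that leave out the top 50 genes, in either comparison, nor in thinned nuclei for tamsulosin against control. Between tamsulosin and scopolamine, 0 were higher (2.15%) and 0 lower (1.49%). Krt18 was at 0.885 and 0.868 of control, which is above the median gene, with relative log2 differences of 0.12 and 0.21. Below 20 CPM, Krt5, Krt14 and Krt17 were also higher in the scopolamine library than in control, and Trp63 was lower in the tamsulosin library than in either other. These levels are within counting error of those in non-epithelial nuclei or below them. Krt8 in non-epithelial nuclei rose from control by a larger factor, at 16.7, 38.6 and 51.1 CPM against 25.5, 53.5 and 48.6 CPM here. After free RNA was subtracted the Krt8 ratio of scopolamine to control was 1.67 with an interval that held 1. Subtraction gave no Krt8 ratio of tamsulosin to control, where the acinar-like level was below the non-epithelial one.

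In duct-like nuclei of the scopolamine library, 1 of 5 genes was higher than in control (5.65% of all genes) and 1 was lower (8.28%). Trp63 was 3.68 times (2.46 to 5.68) and Krt23 0.499 times (0.361 to 0.684) the control level. Below 20 CPM, Krt5 was 4.50 times (1.29 to 24.1) and Krt14 4.64 times (1.58 to 18.5) the control level. Against scopolamine, 1 of 5 was higher in the tamsulosin library (5.95%), Krt18 at 1.58 (1.38 to 1.81), and 1 lower (15.7%), Trp63 at 0.0607 (0.0440 to 0.0828). The Krt18 ratio no longer passed in 5 of 9 alternatives, down to 1.35, and the Krt23 ratio of scopolamine to control in 4 of 9, up to 0.733. Those that lost the Krt23 call included free RNA subtraction. Against control, 1 of 4 was higher (6.96%), Krt8 at 1.91 (1.60 to 2.31), and 0 lower (30.7%). Krt8 in non-epithelial nuclei rose too, from 16.7 CPM in control to 51.1 CPM in tamsulosin. The duct-like Krt8 ratio still passed in all 9 alternatives. Cluster 19 made up 5.36, 18.0 and 0.647% of duct-like nuclei and gave 23 of 30, 122 of 131 and 20 of 61 Trp63 UMIs. Without cluster 19 the Trp63, Krt5, Krt14 and Krt18 differences that passed between libraries no longer did so in duct-like nuclei. The Trp63 ratio was then 1.21 (0.401 to 3.83) for scopolamine against control, 0.518 (0.248 to 1.21) for tamsulosin against scopolamine and 0.628 (0.279 to 1.66) for tamsulosin against control. The Krt5 and Krt14 ratios of tamsulosin to scopolamine were then 1.93 (0.303 to 80.8) and 0.660 (0.253 to 2.18).

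Cluster 11 was the duct-like cluster with over 100 nuclei in every library, and in it the basal genes stayed low. Against control, 0 of 4 genes were higher in the scopolamine library (5.71% of all genes) and 1 was lower (7.12%), Krt23 at 0.456 (0.316 to 0.649). Krt23 went from 64.6 to 29.5 CPM in cluster 11 and from 38.1 to 27.5 CPM in non-epithelial nuclei. Against scopolamine, 3 of 4 were higher in the tamsulosin library (5.73%) and 0 lower (7.21%). Krt7 was 1.56 times (1.14 to 2.13), Krt8 1.56 times (1.22 to 1.98) and Krt18 2.05 times (1.67 to 2.52) the scopolamine level. Against control the same 3 were higher (8.64%) and 0 lower (15.6%), with Krt7 at 1.74 (1.27 to 2.38), Krt8 at 1.96 (1.53 to 2.52) and Krt18 at 1.89 (1.55 to 2.30). Non-epithelial nuclei held 16.7, 38.6 and 51.1 CPM of Krt8, and the part of free RNA in the cluster 11 ratios was not tested. The median depth of cluster 11 nuclei was 3848.5, 3634 and 5860 UMIs, highest in the tamsulosin library, and its part in these ratios was not tested. Most tamsulosin duct-like nuclei, 3246 of 3401, lay in cluster 2, which held 67 scopolamine nuclei. There Krt7 lay at 63.8 (37.2 to 102) CPM in scopolamine and 43.1 (39.9 to 46.6) CPM in tamsulosin. Krt8 lay at 158 (114 to 213) and 136 (130 to 142) CPM, and Krt18 at 135 (94.6 to 187) and 167 (161 to 174) CPM. The intervals overlap for each gene.

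**Figure D3:**
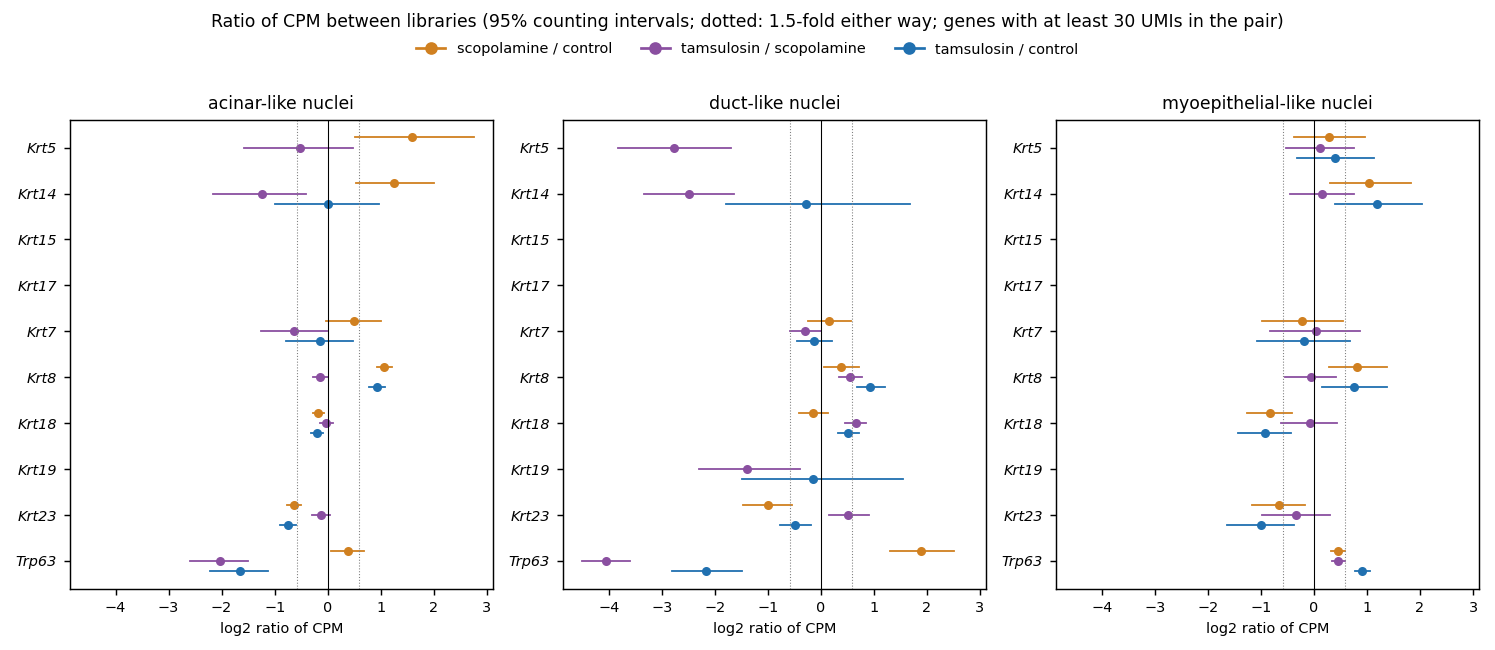
Log2 ratios of CPM between libraries (horizontal axis) for each gene with at least 30 UMIs, by class and comparison, with exact conditional binomial 95% intervals a line at equal levels and dotted lines at 1.5-fold. The Krt8 ratios to control lie between 1.31 and 2.09 in the 3 classes, and the Trp63 ratio in the tamsulosin library against control lies at 1.88 in myoepithelial-like nuclei, 0.318 in acinar-like nuclei and 0.224 in duct-like nuclei.

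Krt8 and Krt18 pair in the filament, and their UMIs shifted relative to each other between libraries in every class. The number of Krt8 UMIs per Krt18 UMI, which is not corrected for gene length, was 0.318 (0.290 to 0.348), 0.753 (0.693 to 0.818) and 0.698 (0.634 to 0.768) in acinar-like nuclei. It was 0.597 (0.475 to 0.748), 0.859 (0.706 to 1.04) and 0.798 (0.754 to 0.845) in duct-like nuclei. In myoepithelial-like nuclei it was 0.369 (0.252 to 0.533), 1.16 (0.863 to 1.56) and 1.18 (0.796 to 1.76). The control value was the lowest in each class, with an interval apart from those of both other libraries in acinar-like and myoepithelial-like nuclei. Non-epithelial nuclei showed the same order of control against the others, at 0.297, 0.741 and 0.871, and the part of free RNA in this shift was not tested.

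**Figure D4:**
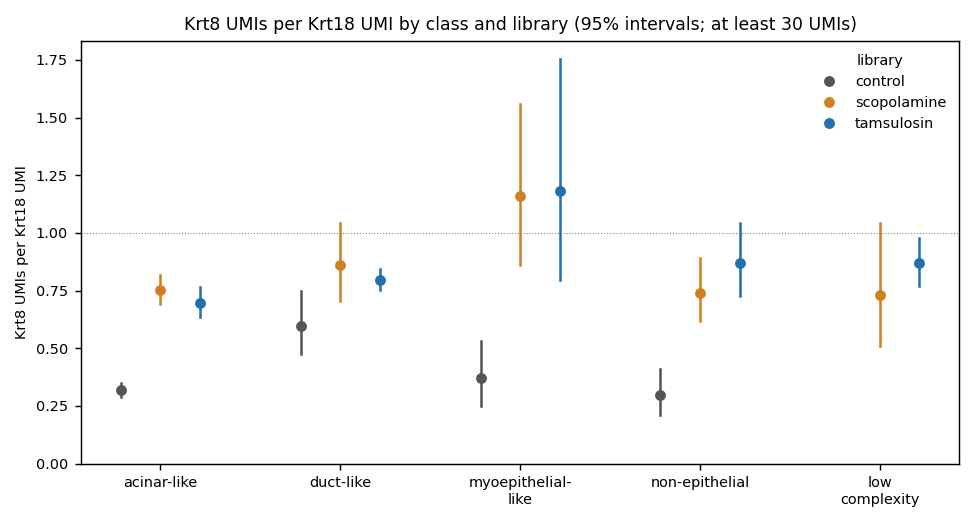
Krt8 UMIs per Krt18 UMI by class and library, with exact conditional binomial 95% intervals; sums under 30 UMIs are left out. The control value is lowest in each of the 4 classes where it is shown, at 0.318 in acinar-like nuclei against 0.753 and 0.698 in the scopolamine and tamsulosin libraries, and non-epithelial nuclei follow the same order.

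Hemidesmosomes anchor Krt5 and Krt14 filaments to laminin of the basement membrane. Of the list of hemidesmosome and laminin genes, Itga6, Itgb4, Col17a1, Dst, Itga3, Lama3 and Lamb3 were above non-epithelial nuclei in myoepithelial-like nuclei of all 3 libraries (5.91% of all genes). In duct-like nuclei 3 genes of the list were (Itga6, Itgb4 and Lamb3; 9.23% of all genes) and in acinar-like nuclei 0 (6.06%). Lama3, a laminin alpha chain, lay at 198, 192 and 201 CPM in myoepithelial-like nuclei and at 3.94, 23.7 and 1.24 CPM in duct-like nuclei. Col17a1, a hemidesmosome collagen that was also 1 of the markers used for naming, lay at 48.3, 58.0 and 75.5 CPM in myoepithelial-like nuclei. In the tamsulosin library Col17a1 was 1.56 times (1.15 to 2.13) the control level there.

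Desmosomes join keratin filaments of neighbouring cells. Of the 10 genes of this list, 7 were above non-epithelial nuclei in duct-like nuclei of all 3 libraries (9.23% of all genes), 7 in myoepithelial-like nuclei (5.91%) and 4 in acinar-like nuclei (6.06%). The plakophilin Pkp2 lay at 230, 180 and 221 CPM in duct-like nuclei and at 60.4, 53.5 and 20.9 CPM in myoepithelial-like nuclei. Dsc3, a basal desmocollin, lay at 59.2, 51.7 and 49.3 CPM in myoepithelial-like nuclei and at 3.38, 8.07 and 0.557 CPM in duct-like nuclei. Of the 10 keratin linkers and keratin-binding proteins, 6 were higher in duct-like nuclei, 2 in myoepithelial-like nuclei and 1 in acinar-like nuclei, against the same shares of all genes, and the last is near its share. Periplakin (Ppl) lay at 41.1, 31.8 and 37.9 CPM in duct-like nuclei and at 6.07, 8.44 and 6.53 CPM in acinar-like nuclei.

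Of 18 genes linked to p63 in epithelia, 9 were above non-epithelial nuclei in myoepithelial-like nuclei of all 3 libraries: Jag2, Cdh3, Perp, Itga3, Itgb4, Col17a1, Dst, Fgfr2 and Tfap2c. The share of all genes was 5.91%. In duct-like nuclei 6 were (9.23% of all genes), and in acinar-like nuclei 2 (6.06%). Cdh3 and Col17a1 were also naming markers. Of the 11 with at least 20 CPM in myoepithelial-like nuclei, 5 were higher in tamsulosin than in control (5.44% of all genes) and 2 lower (57.7%). Their median log2 ratio was 0.42, against -0.67 over all genes. The highest ratios were those of Perp, a desmosome gene, at 2.40 (1.69 to 3.43) and Tfap2c, an AP-2 factor, at 1.86 (1.43 to 2.43). The lowest were those of Fermt1, an integrin activator, at 0.391 (0.276 to 0.546) and Tfap2a, another AP-2 factor, at 0.529 (0.388 to 0.716). Perp was also 3.29 times (2.59 to 4.24) the control level in duct-like nuclei, 1.76 times (1.55 to 2.005) in acinar-like nuclei, and lay at 12.9, 17.6 and 35.2 CPM in non-epithelial nuclei. Fgfr2, another of the 5, was 1.54 times (1.35 to 1.76) the control level in myoepithelial-like and 1.99 times (1.90 to 2.10) in acinar-like nuclei. In non-epithelial nuclei Fgfr2 lay at 116, 227 and 193 CPM. Of the 7 genes of the p53 family and its partners, Trp63 alone was above non-epithelial nuclei in myoepithelial-like nuclei of all 3 libraries (5.91% of all genes). This is the Trp63 result given above and not a further one, and Wwp1 was lower. The Trp63 paralog Trp73 had 0, 6 and 7 UMIs in myoepithelial-like nuclei. Among 12 other intermediate filament genes, 1 was higher in myoepithelial-like nuclei, Synm (20.4, 26.5 and 23.9 CPM), which is near the 5.91% of all genes. Vim was lower in all 3 epithelial classes.

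Over 21 sums of a class in a library, Trp63 ran closest to Krt5 among the keratins, with a Pearson r of 0.953 on log2(CPM + 5), then to Krt14 (0.901) and Krt17 (0.888). Krt14 and Krt17 had an r of 0.942, and Krt8 and Krt18 one of 0.580. Among 9675 genes, the 3 most like Trp63 were Col4a6 (0.972), Nell1 (0.971) and Col17a1 (0.970). Fat2 (0.979) and Gm5860 (0.960) were among those most like Krt5, and the 3 most like Krt14 were Mir205hg (0.953), Ptprz1 (0.934) and Cdh3 (0.932). For Krt7 they were Lrrc36 (0.925), Mgat3 (0.920) and Itgb8 (0.915), and for Krt18 Adh1 (0.920), Slc5a8 (0.913) and Rab15 (0.912). Krt8 was followed by Sult1d1 (0.892), Sult1e1 (0.885) and Cxcl17 (0.881), and Krt23 by Pax6 (0.883), Slc25a37 (0.880) and Dnajc24 (0.875). The sums share libraries, depth and free RNA, so these values describe likeness only. They include the myoepithelial-like sums, where Trp63, Krt5, Krt14 and Krt17 were highest, so the values among these genes repeat that class difference. Col17a1 and Cdh3 were also markers used to name that class.

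The other 44 keratin genes added little: 21 had 0 UMIs and 40 had under 10, and together they held 816 UMIs against 21871 for the 9 keratins above. Krt80, a type II keratin, had 465 UMIs and was above non-epithelial nuclei in duct-like nuclei of all 3 libraries, at 8.44, 9.02 and 13.5 CPM. Krt10, a type I keratin of differentiated epidermis, had 254 UMIs, and Krt222 had 28.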

How the data were processed

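Nuclei of 3 libraries, 1 per group, were analysed from raw UMI counts per gene and barcode deposited by the authors. The counts were made with Cell Ranger 5.0.0 on mm10, per the submitters' processing notes; the annotation release and the counting of intronic reads are not given in the sources used here. The deposited matrices held 7253, 10024 and 12322 barcodes and 33500727, 35237256 and 57969348 UMIs (control, scopolamine, tamsulosin).

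Barcodes with at least 500 UMIs, at least 300 genes and at most 5% mitochondrial UMIs were kept. Scrublet's own threshold marked 0, 0 and 3 barcodes and had not worked, so the highest doublet scores were removed at 0.8% per 1000 nuclei (414, 801 and 1156). Nuclei were clustered with scanpy 1.11.5 and igraph 0.11.9 (2000 variable genes without keratins and Trp63, 30 components, 15 neighbours, Leiden resolution 1.0) and named from marker lists without these genes. The naming thresholds were set after the clusters were seen, and 2 low-complexity clusters stayed out of the classes.

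UMIs were summed per class and library. Intervals are 95% exact Poisson (levels), exact conditional binomial (ratios) and Clopper-Pearson (shares), with scipy 1.17.1, and a count of 0 was taken to allow 3 counts. No test was run, because each group is 1 library; the code was tested on simulated data.

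The genes and lists were chosen with earlier results of these data known. Named genes are all 10, the 3 other keratins with the most UMIs, the 3 genes most like each of those with at least 100 UMIs, and, from each list, counts and the 2 highest and 2 lowest ratios; Lama3, Dsc3, Pkp2, Ppl, Cdh3, Trp73, Synm and Vim were also named, after their values were seen. Some items that the rule names are not reported here. Alternatives were another resolution, keratins allowed in clustering, doublets kept, deeper or thinned nuclei, totals without the 50 genes with the most UMIs (38.1% of UMIs), and free RNA subtracted at its non-epithelial level. A further 3 were chosen after seeing the data: cluster 11 alone, no cluster 19, and low-complexity clusters counted as acinar-like.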

Additional observations from a re-analysis of the deposited data

Results flagged for a closer look

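The tamsulosin to control ratio of Trp63 differed in direction between classes: it was 1.88 in myoepithelial-like nuclei, 0.318 in acinar-like nuclei and 0.224 in duct-like nuclei. With 1 library per group the difference between classes was not tested. The acinar-like levels (7.33 CPM in control and 2.33 CPM in tamsulosin) lay below those of non-epithelial nuclei (13.9 and 9.81 CPM), and in duct-like nuclei cluster 19 gave 23 of the 30 control Trp63 UMIs.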

How the results depend on the processing

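No paired analysis was possible because each group is 1 library. Of 102 alternative counts of genes, 80 stayed within 1.5 times the main count and 22 did not; of 211 alternatives to the 28 ratios past the limits, 159 still passed in the same direction. The causes of the changes below were not tested, except where fewer nuclei or clusters entered. With nuclei thinned to 1000 UMIs, 1 gene rather than 4 was highest in myoepithelial-like nuclei. Counts of genes past 1.5-fold at any level follow. Scopolamine against control: acinar-like 5, but 3 with at least 1600 UMIs and 1 with free RNA subtracted; duct-like 4, but 7 with doublets kept, 7 with keratins allowed in clustering, 0 with free RNA subtracted, 2 thinned, 1 from cluster 11 alone and 1 without cluster 19; myoepithelial-like 4, but 1 with free RNA subtracted. Tamsulosin against control: acinar-like 3, but 1 with free RNA subtracted; duct-like 2, but 1 without cluster 19; myoepithelial-like 5, but 2 at resolution 2.0, 2 with at least 1600 UMIs, 2 with free RNA subtracted and 3 thinned. Tamsulosin against scopolamine: acinar-like 3, but 1 with at least 1600 UMIs, 0 with free RNA subtracted and 1 thinned; duct-like 6, but 3 from cluster 11 alone and 1 without cluster 19; myoepithelial-like 0, but 1 (Trp63) with totals that leave out the top 50 genes. These tamsulosin to scopolamine ratios changed direction: in acinar-like nuclei Krt14 at 1.08 and Krt7 at 1.33 (at least 1600 UMIs) and Krt7 at 1.15 (low-complexity clusters included), and in duct-like nuclei Krt14 and Krt5 at 3.30 each (cluster 11 alone), Krt5 at 1.93 (without cluster 19) and Krt19 at 1.35 (thinned). The scopolamine to control ratio of Krt8 in myoepithelial-like nuclei became 0.769 with free RNA subtracted. Krt8 in the tamsulosin library against control passed under all 9 alternatives in duct-like nuclei. In acinar-like and myoepithelial-like nuclei it passed under the 7 and 6 alternatives that gave a ratio. Free RNA subtraction gave no ratio in these 2 classes, and the call did not survive it. Their tamsulosin Krt8 levels (48.6 and 44.1 CPM) lay below the non-epithelial one (51.1 CPM). Krt14 in scopolamine against control also passed under all 7 alternatives in myoepithelial-like nuclei. Depth limits Krt15, Krt17 and Krt19, which have under 100 UMIs each.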
